A study of Mus musculus with 12 samples.

Results

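The FOS, JUN and EGR early response genes are transcription factors that fibroblasts switch on when growth factors reach them. All array probes whose platform gene symbol is Fos, Fosb, Fosl1, Fosl2, Jun, Junb, Jund, Egr1, Egr2 or Egr3 were taken, which gave 13 of 45281 probes and 9 of the 10 genes. Fosl1 was not analysed here. The cells were NIH-3T3, a fibroblast line from mouse embryos, which had received PPARγ2 by lentiviral infection and were grown in high-glucose medium with serum and blasticidin. PPARγ2 is the fat-cell form of a nuclear receptor that turns on lipid storage genes, and rosiglitazone is a drug that activates it. The series set out to describe what the E157D form of the receptor does to transcription across the genome. The 4 groups were E157D receptor with 20 µM rosiglitazone for 24 h, E157D receptor with its vehicle DMSO, wild-type receptor with rosiglitazone and wild-type receptor with DMSO, each with 3 arrays from 3 independent experiments. All 12 cultures carried an introduced receptor, and cells without one are not analysed here. The labels do not say how often each receptor was introduced, so the p-values measure the spread between these arrays.

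Proteins of the FOS family (Fos, Fosb, Fosl1, Fosl2) cannot pair with each other and bind DNA as a dimer with a JUN protein (Jun, Junb, Jund), and the dimer is called AP-1. The EGR proteins bind GC-rich sites through zinc fingers. Growth factor receptors reach these genes through the ERK cascade, whose kinases act on ternary complex factors that sit with SRF on CArG boxes, while stress reaches Jun through JNK. Their transcripts appear within minutes of a stimulus and decay quickly, so a sample taken after a day shows a resting or slowly set level, not the first wave.

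The 250 bases before the annotated start of the genes were read from RefSeq (assembly GRCm38.p6). Windows are shown for the 4 genes whose rosiglitazone response was called in wild-type cells, described below. There were 11 such windows for 7 genes, and none was at hand for Egr1, Egr3 and Fosl1. Each window is written 5′ to 3′ on the strand of its gene, and capitals mark a match to a searched motif. For Fosl2 (chr5:32136222-32136471, plus strand) and Fosb (chr7:19310046-19310295, minus strand) the capitals mark GCGNGGGCG, the sequence EGR proteins bind, with N any base. For Egr2, which has 5 alternative starts, the third window (chr10:67537619-67537868, plus strand) is shown and the capitals mark a CArG box. Junb (chr8:84978749-84978998, minus strand) held none of the motifs.
Fosl2: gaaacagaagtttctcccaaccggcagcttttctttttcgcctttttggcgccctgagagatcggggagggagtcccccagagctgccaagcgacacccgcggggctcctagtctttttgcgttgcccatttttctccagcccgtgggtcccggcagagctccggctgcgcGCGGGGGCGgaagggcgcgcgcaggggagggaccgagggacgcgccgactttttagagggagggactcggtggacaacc
Fosb: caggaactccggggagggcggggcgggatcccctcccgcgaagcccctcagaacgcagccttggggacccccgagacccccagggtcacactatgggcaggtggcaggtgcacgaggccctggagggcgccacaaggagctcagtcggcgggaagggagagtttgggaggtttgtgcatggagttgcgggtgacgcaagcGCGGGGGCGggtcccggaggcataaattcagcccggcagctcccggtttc
Junb: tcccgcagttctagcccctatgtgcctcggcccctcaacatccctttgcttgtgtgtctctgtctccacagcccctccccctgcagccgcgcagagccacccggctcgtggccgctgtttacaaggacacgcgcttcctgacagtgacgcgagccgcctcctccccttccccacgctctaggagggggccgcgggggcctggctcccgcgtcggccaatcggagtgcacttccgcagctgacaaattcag
Egr2: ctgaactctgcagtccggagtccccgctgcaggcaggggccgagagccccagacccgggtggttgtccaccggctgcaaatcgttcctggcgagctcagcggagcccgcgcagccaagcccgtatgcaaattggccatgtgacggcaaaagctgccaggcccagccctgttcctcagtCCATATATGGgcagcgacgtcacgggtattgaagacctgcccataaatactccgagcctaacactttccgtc
The EGR motif began 79 bases before the start of Fosl2 and 50 bases before that of Fosb. It occurred in 2 of the 7 genes and in 4.70% of 32851 windows of all genes. A CArG box occurred in 4 of the 5 Egr2 windows, which overlap in part, in none of the other 6 genes, and in 1.47% of all windows. Egr2 windows 3, 4 and 5 share the same CCATATATGG site, and window 2 holds another. Only 250 bases were searched, so a box farther upstream of any gene would be missed. The AP-1 sites TGANTCA and TGACGTCA were found in 0 of the 11 windows, against 6.75% and 1.55% of all windows. Both strands were searched, and no match overlapped a match to another motif. A match describes these letters and is not evidence of binding.

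Between 16633 and 17924 probes were detected on an array, which means that the detection p-value deposited with the signal was under 0.05. Levels are given below as log2 intensity after background correction and normalization, so a difference of 1 is a doubling, and levels of different genes are not comparable. Arrays of 1 group correlated at 0.988 to 0.994. The 3 probes for Pparg were detected on none of the 12 arrays (lowest detection p 0.12), so they do not check the receptor. Precision is limited by the small number of arrays. In whole cultures fewer cells of a type and less RNA per cell cannot be told apart.

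With the wild-type receptor, Fosl2, Junb and Fosb were lower and Egr2 was higher after rosiglitazone than after DMSO, so 4 of the 9 genes tested were called at an adjusted p under 0.05. Fosb passed the detection filter only through DMSO arrays, so its call is not independent of that filter. Over all 13006 features tested the share called was 26.7%, with 12.3% higher and 14.4% lower. These counts are from a fit that leaves out the replicate number of the arrays. With the number as a block, 6 of the 9 genes were called with the wild-type receptor, Egr1 and Egr3 in addition. The block called 3899 of the 13006 features. With E157D, 0 of the 9 genes were called by limma, 3 had an unadjusted p under 0.05 (Fosl2, Fosb and Junb), and 4.1% of all features were called. Between the receptors in rosiglitazone, Egr3 was higher and Egr2 lower with E157D, 2 of 9 genes, against 19.8% of all features (10.5% higher and 9.26% lower). Higher calls were 53.2% of that count, and 77.4% under median scaling. In DMSO 0 of 9 genes differed between the receptors, 1 had an unadjusted p under 0.05 (Egr1), and 1.12% of all features were called. The difference of the 2 rosiglitazone responses was called for 0 of 9 genes, against 2.38% of all features, with 2 at an unadjusted p under 0.05 (Egr2 and Fosl2).

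The median log2 change of the 9 genes after rosiglitazone was -0.41 with E157D and -0.59 with the wild-type receptor, beside -0.01 and -0.03 over all features. It was -0.38 with E157D and -0.42 with the wild-type receptor once genes below detection in a whole group were put at their bounds. Lower means after rosiglitazone were found for 8 of 9 genes with E157D and 7 of 9 with the wild-type receptor, while 52.1% and 53.1% of all features had lower means.

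**Figure D1:**
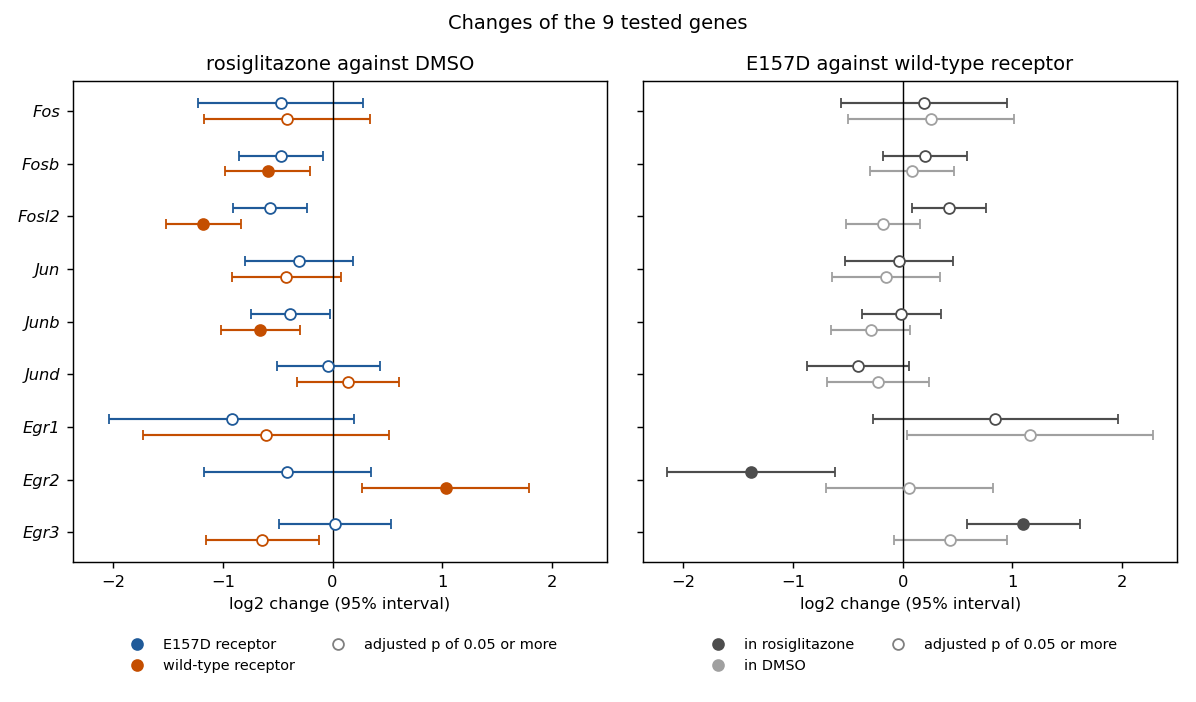
Log2 change (x axis) with its 95% interval for each of the 9 genes, for rosiglitazone against DMSO in cells with E157D or wild-type receptor (left) and for E157D against wild-type receptor in rosiglitazone or DMSO (right). Filled points have an adjusted p under 0.05. These are Fosb, Fosl2, Junb and Egr2 with the wild-type receptor on the left and Egr2 and Egr3 in rosiglitazone on the right. The points of Fos and Fosb include groups below detection, for which the text gives bounds.

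Fosl2, which encodes the FOS relative FRA-2, had the largest decrease among the 9 genes with the wild-type receptor. With E157D it read 11.21, 11.03 and 11.10 on the rosiglitazone arrays, against 12, 11.73 and 11.34 on the DMSO arrays. With the wild-type receptor it read 10.62, 10.80 and 10.66 on the rosiglitazone arrays, against 11.95, 11.98 and 11.67 on the DMSO arrays. The drug and vehicle arrays did not overlap with either receptor, as for 24.6% of all features with E157D and 40.5% with the wild-type receptor, and the wild-type rosiglitazone arrays were the lowest of the 12. The log2 change was -1.18 ± 0.16 (SE) with the wild-type receptor, which is 2.26-fold lower in rosiglitazone (adjusted p = 0.00028). With E157D it was -0.57 ± 0.16 (adjusted p = 0.0643), and this value passed the threshold under several other settings given in the closing section. The difference of the responses, E157D minus wild-type, was 0.61 ± 0.22 (adjusted p = 0.197). Between the receptors, Fosl2 was 0.42 ± 0.16 higher with E157D in rosiglitazone without overlap of the arrays, as for 36.3% of all features (adjusted p = 0.0764) and -0.18 ± 0.16 in DMSO (adjusted p = 0.77). The 2 further Fosl2 probes were detected on none of the 12 arrays.

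Fosb, whose protein and its truncated form pair with JUN proteins, was near background. It was detected on 4 of 12 arrays, and all 4 were DMSO arrays, 2 with each receptor. Its values were 5.08, 5.08 and 5.44 with E157D and rosiglitazone, against 5.39, 5.61 and 6.01 with E157D and DMSO. In cells with the wild-type receptor they were 4.81, 5.03 and 5.14 in rosiglitazone, against 5.35, 5.78 and 5.64 in DMSO. The wild-type groups did not overlap, and the E157D groups did, through 1 rosiglitazone and 1 DMSO array. With no array detected in rosiglitazone, only a bound can be given. The bound compares means, carries no error, and uses DMSO means that each include an undetected array. By it Fosb was at least 1.06-fold lower in rosiglitazone with the wild-type receptor (adjusted p = 0.0272). With E157D the bound was 1.21-fold, but the groups overlapped and no decrease was called (adjusted p = 0.175). The wild-type call was lost without rosiglitazone array 1 or 2 or without DMSO array 2 or 3, with adjusted p from 0.0185 to 0.101 over the 6 arrays left out in turn. No fold is given between the receptors in rosiglitazone, since both groups were below detection.

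Fos, the founding member of the family and the classic transient response gene, was detected on 3 of 12 arrays. The values were 4.86, 5.45 and 4.85 with E157D and rosiglitazone, against 5.07, 6.56 and 4.95 with E157D and DMSO. In cells with the wild-type receptor they were 4.78, 5.09 and 4.71 in rosiglitazone, against 5.06, 5.48 and 5.27 in DMSO. The 3 detected arrays were the number 2 arrays of every group but wild-type rosiglitazone, and the groups overlapped. The log2 change with E157D was -0.47 ± 0.35 (adjusted p = 0.517). For the wild-type receptor no fold can be given because the rosiglitazone arrays were below detection (adjusted p = 0.422).

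**Figure D2:**
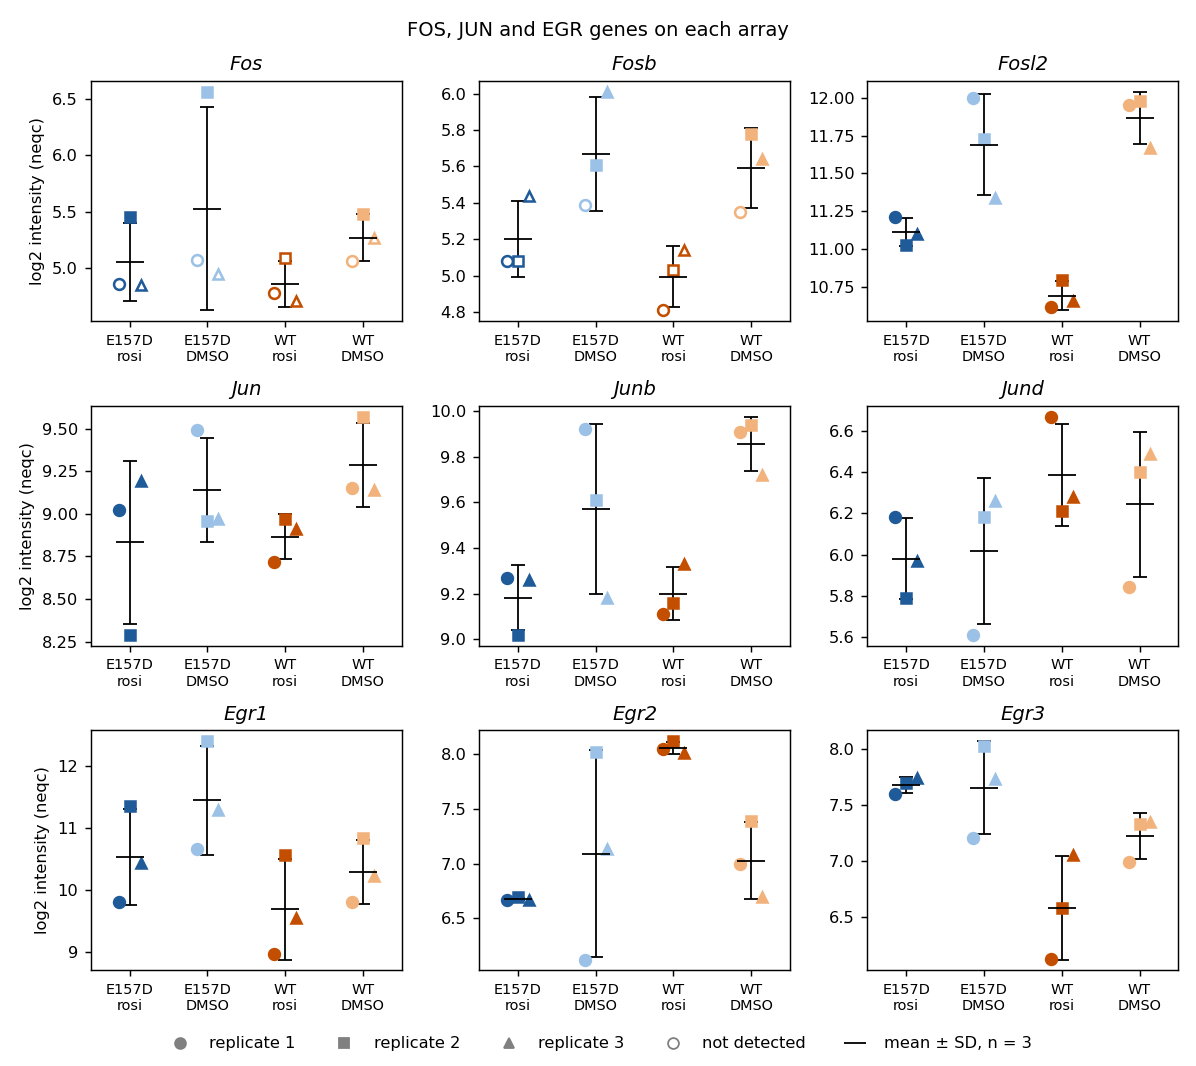
Log2 intensity (y axis, a separate scale for each gene) of the 9 genes on the 12 arrays, by group (x axis). Symbols give the replicate number, open symbols an undetected probe, and bars the mean ± SD of 3 arrays. All Fosl2 arrays in rosiglitazone lie below those in DMSO with both receptors, Egr2 sits near 8.06 on average in wild-type rosiglitazone and near 6.68 in E157D rosiglitazone, and the number 2 arrays of Fos, Egr1 and Egr2 are the highest of each group.

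Among the JUN genes, Junb changed with the wild-type receptor, and neither Jun nor Jund passed the test in any comparison. Junb encodes a JUN protein that activates less strongly than Jun on many AP-1 sites and can restrain growth. It read 9.27, 9.02 and 9.26 with E157D and rosiglitazone, against 9.92, 9.61 and 9.18 with E157D and DMSO. With the wild-type receptor it read 9.11, 9.16 and 9.33 in rosiglitazone, against 9.91, 9.94 and 9.72 in DMSO. The wild-type groups were well apart, while the third E157D DMSO array lay among the E157D rosiglitazone arrays. The log2 change was -0.66 ± 0.17 with the wild-type receptor, 1.58-fold lower in rosiglitazone (adjusted p = 0.0121, and 0.019 to 0.0469 with each single array left out). It was -0.38 ± 0.17 with E157D (adjusted p = 0.237), and the difference of the responses was 0.28 ± 0.23 (adjusted p = 0.63). Without the 4 arrays numbered 1 or the 4 numbered 2, a check added after the data were seen, the adjusted p with the wild-type receptor was 0.0597 or 0.127. A second Junb probe was detected on 1 of 12 arrays and not tested.

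Jun, the JUN protein that ERK and JNK signalling activates, read 9.02, 8.29 and 9.19 with E157D and rosiglitazone, against 9.49, 8.96 and 8.97 with E157D and DMSO. Cells with the wild-type receptor gave 8.72, 8.97 and 8.91 in rosiglitazone, against 9.15, 9.57 and 9.14 in DMSO. The wild-type groups did not overlap, and the E157D groups did. The log2 change was -0.42 ± 0.23 with the wild-type receptor (95% interval -0.91 to 0.07, adjusted p = 0.199) and -0.30 ± 0.23 with E157D (adjusted p = 0.525). Jund, which growing and resting cells express more evenly than the other JUN genes, ranged from 5.61 to 6.67 over the 12 arrays, all detected. Its log2 change with rosiglitazone was -0.04 ± 0.21 with E157D and 0.14 ± 0.21 with the wild-type receptor. In rosiglitazone Jund read 6.18, 5.79 and 5.97 with E157D, against 6.67, 6.21 and 6.28 with the wild-type receptor. These groups did not overlap, and the difference was -0.41 ± 0.21 (adjusted p = 0.215). Jun and Junb differed by -0.03 ± 0.23 and -0.02 ± 0.17 between the receptors in rosiglitazone, and both signs turned under median scaling, to 0.16 and 0.18, where the median of all features moved to 0.17.

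Of the EGR genes, Egr2 was called for rosiglitazone in the fit without a block, and Egr1 and Egr3 were not. With the replicate number as a block Egr1, Egr2 and Egr3 were each called with the wild-type receptor, and Egr1 with E157D. Egr2, which the fat-cell and nerve-sheath fields know as Krox20, was higher after rosiglitazone with the wild-type receptor. It read 6.67, 6.69 and 6.67 with E157D and rosiglitazone, against 6.12, 8.02 and 7.13 with E157D and DMSO. With the wild-type receptor it read 8.05, 8.12 and 8.01 in rosiglitazone, against 7.0, 7.39 and 6.69 in DMSO. Both rosiglitazone groups were tight, and the E157D DMSO arrays were spread widely, with 1 of them the lowest of the 12 arrays. The rise with the wild-type receptor was 1.03 ± 0.35, or 2.04-fold (adjusted p = 0.0476). This call was lost when any one of 5 of the 6 arrays was left out, the exception being the second DMSO array, with adjusted p up to 0.147. With E157D the change was -0.41 ± 0.35 (adjusted p = 0.586), and the difference of the responses was -1.44 ± 0.49 (adjusted p = 0.168).

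In rosiglitazone Egr2 was 2.61-fold lower with E157D than with the wild-type receptor (log2 difference -1.38 ± 0.35, adjusted p = 0.0163). The 3 E157D arrays all lay below the 3 wild-type arrays. With single arrays left out the adjusted p was 0.0387 to 0.0502, the highest value being that without the first wild-type array. In DMSO the difference was 0.06 ± 0.35 (95% interval -0.70 to 0.82).

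Egr3, another zinc-finger factor induced with Egr1, read 7.60, 7.70 and 7.74 with E157D and rosiglitazone, against 7.21, 8.03 and 7.73 with E157D and DMSO. In cells with the wild-type receptor it read 6.12, 6.58 and 7.05 in rosiglitazone, against 6.99, 7.33 and 7.35 in DMSO. Only the third wild-type rosiglitazone array reached the range of the DMSO arrays. In rosiglitazone Egr3 was 2.14-fold higher with E157D than with the wild-type receptor (log2 difference 1.10 ± 0.24, adjusted p = 0.00681), with no overlap. With single arrays left out the adjusted p was 0.00294 to 0.0304, and without the 4 arrays numbered 2 it was 0.0725. The log2 change with rosiglitazone was 0.02 ± 0.24 with E157D (adjusted p = 0.973) and -0.64 ± 0.24 with the wild-type receptor (adjusted p = 0.0644). It was called without the third wild-type rosiglitazone array, and with the replicate number as a block the wild-type value had an adjusted p of 0.0159. The difference of the responses was 0.66 ± 0.33 (adjusted p = 0.368). A second Egr3 probe, dim and detected on 9 of 12 arrays, went the other way. It changed by 0.39 ± 0.19 with the wild-type receptor and rosiglitazone (adjusted p = 0.16), and differed by -0.20 ± 0.19 between the receptors in rosiglitazone (adjusted p = 0.513), so the Egr3 result rests on 1 probe.

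Egr1, the EGR factor that serum induces most readily in fibroblasts, varied widely between the arrays of each group. It read 9.81, 11.35 and 10.44 with E157D and rosiglitazone, against 10.66, 12.40 and 11.29 with E157D and DMSO. In cells with the wild-type receptor it read 8.96, 10.56 and 9.54 in rosiglitazone, against 9.81, 10.84 and 10.23 in DMSO. In all 4 groups the array numbered 2 was the highest and the array numbered 1 the lowest, and the groups overlapped. The log2 change was -0.92 ± 0.51 with E157D (adjusted p = 0.374) and -0.60 ± 0.51 with the wild-type receptor (adjusted p = 0.427). With single arrays left out it ranged from -1.33 to -0.45 with E157D and from -1.04 to -0.24 with the wild-type receptor, without a call. Same-numbered arrays deviated together in the wild-type comparison (correlations 0.129 to 0.239 over all features), a pairing that rests on the data, since the labels do not describe it. The wild-type differences within a number were -0.85, -0.27 and -0.69, and with the number as a block the change was -0.60 ± 0.13 (adjusted p = 0.00694). Between the receptors Egr1 differed by 0.84 ± 0.51 in rosiglitazone (adjusted p = 0.284) and by 1.16 ± 0.51 in DMSO (unadjusted p = 0.0435, adjusted p = 0.428), with the higher mean in E157D both times. Within a replicate number these differences were 0.85, 0.79 and 0.90 in rosiglitazone and 0.85, 1.56 and 1.06 in DMSO, and those of the E157D drug response were -0.86, -1.05 and -0.85. With the number as a block all 3 were called, with the values given in the closing section. In these 3 comparisons the same-number correlations were all positive, at 0.0422 to 0.252, and the labels do not describe a pairing.

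Egr1 was not alone in following the replicate number. Fos and Egr2 were also highest on the number 2 array in all 4 groups, which held for 1.99% of all features. Fosb and Egr3 were highest on the number 3 array in 3 of the 4 groups, but the share of all features that do so was not counted. Fos, Egr1 and Egr3 had their highest value of all 12 arrays on the second E157D DMSO array, as did 8.53% of all features. After the group means were taken off, Egr1 correlated with Fos at 0.79, with Egr2 at 0.63 and with Egr3 at 0.59 over the 12 arrays, and with Jun at -0.32 and Junb at -0.26. These are descriptions over arrays that share normalization and experiment.

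**Figure D3:**
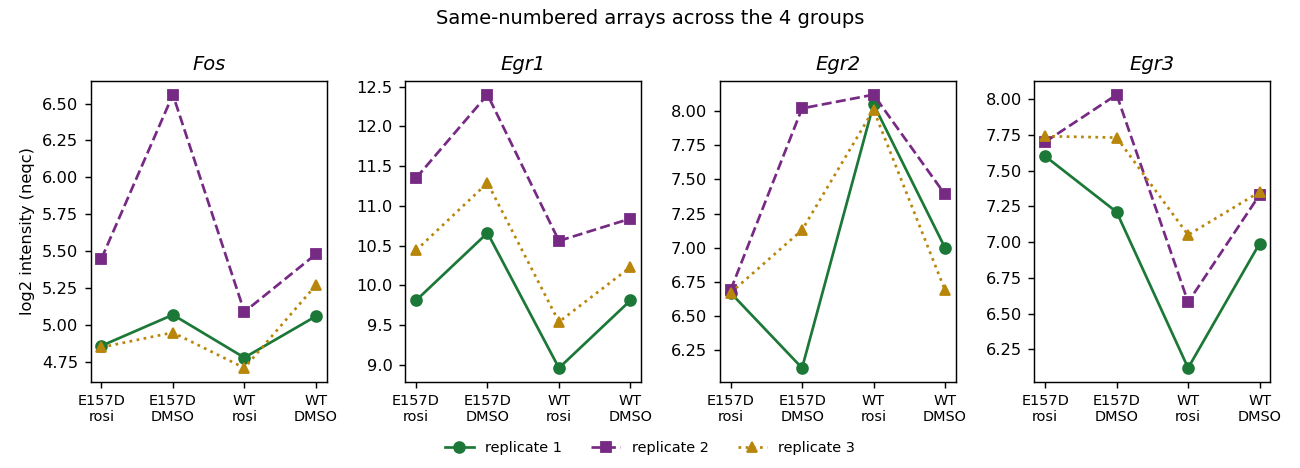
Log2 intensity (y axis) of Fos, Egr1, Egr2 and Egr3 in the 4 groups (x axis), with a line joining the arrays of each replicate number. For Fos, Egr1 and Egr2 the line of number 2 lies above the others in every group, and the 3 lines of Egr1 do not cross.

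Egr2 and Egr3 had different orders across the groups. Mean levels of Egr2 in descending order were 8.06 ± 0.05 (SD, n = 3) in wild-type rosiglitazone, 7.09 ± 0.95 in E157D DMSO, 7.03 ± 0.35 in wild-type DMSO and 6.68 ± 0.01 in E157D rosiglitazone, and the last 3 did not differ beyond their spread. Those of Egr3 were 7.68 ± 0.07 in E157D rosiglitazone, 7.66 ± 0.42 in E157D DMSO, 7.22 ± 0.20 in wild-type DMSO and 6.58 ± 0.46 in wild-type rosiglitazone, and no neighbours in this order were called different. Fosl2 was ordered 11.87 ± 0.17 in wild-type DMSO, 11.69 ± 0.33 in E157D DMSO, 11.12 ± 0.09 in E157D rosiglitazone and 10.69 ± 0.10 in wild-type rosiglitazone.

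Other immediate early genes were mixed. For this and the following lists, 4.1% of all features were called after rosiglitazone with E157D. With the wild-type receptor 26.7% were called (12.3% higher and 14.4% lower), and between the receptors in rosiglitazone 19.8%. Of 30 tested from a list of 37, 3 rose and 1 fell after rosiglitazone with E157D, and 4 rose and 10 fell with the wild-type receptor, with medians of -0.11 and -0.36. Arc, which encodes a synaptic protein, was higher with both receptors, by 1.5 ± 0.24 with E157D (adjusted p = 0.004) and 0.97 ± 0.24 with the wild-type receptor (adjusted p = 0.0104). The Notch target Hes1 was higher with both receptors, by 1.43 ± 0.22 with E157D (adjusted p = 0.00349) and 1.73 ± 0.22 with the wild-type receptor (adjusted p = 0.000191). In DMSO Hes1 was detected on 2 of 3 arrays with E157D and 1 of 3 with the wild-type receptor. Arc was detected on 1 of 3 E157D DMSO arrays, so these sizes rest partly on values below detection. Ccn2, a matrix protein that TGF-beta and YAP induce, was lower with both, by a log2 change of -1.26 ± 0.19 with E157D (adjusted p = 0.00331) and -1.53 ± 0.19 with the wild-type receptor (adjusted p = 0.000171). With the wild-type receptor, Sgk1, a kinase gene, fell by 1.13 ± 0.11, Gadd45b, a stress gene, by 1.08 ± 0.16 and Cited2, a coactivator gene, by 1.04 ± 0.16 (log2). Klf4, a zinc-finger factor, was higher by 0.91 ± 0.16 with E157D (adjusted p = 0.00725) and lower by a log2 change of -0.62 ± 0.16 with the wild-type receptor (adjusted p = 0.0138). The difference of the responses was called for Klf4 (1.53 ± 0.22, adjusted p = 0.00472) and Sgk1 (0.70 ± 0.16, adjusted p = 0.0415). In rosiglitazone 11 of the 30 were higher and 2 lower with E157D than with the wild-type receptor, the largest differences being those of Klf4 (1.86 ± 0.16) and the matrix protein gene Ccn1 (1.75 ± 0.39). Ier2, Ier5, Nr4a1, Nr4a3, Btg2, Maff and Egr4, several of them classic co-induced genes, did not pass the detection filter.

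Genes upstream of AP-1 and EGR were mostly lower where they changed with the wild-type receptor. Of 27 tested growth factor receptors and ERK cascade genes, 0 rose and 1 fell with E157D, and 0 rose and 8 fell with the wild-type receptor (medians -0.04 and -0.12). The shares of all features called were 4.1% and 26.7%. The largest falls were those of the receptors Pdgfra, Igf1r, Fgfr2, Erbb2 and Pdgfrb and the small GTPase Rras. Pdgfra, the receptor for PDGF in fibroblasts, fell by 1.65 ± 0.33 (adjusted p = 0.00333) and Igf1r, the IGF receptor, by 1.05 ± 0.13 (adjusted p = 0.000208) on the log2 scale. Igf1r also fell with E157D, by 0.67 ± 0.13 (adjusted p = 0.0157). In rosiglitazone 8 of the 27 were higher and 1 was lower with E157D than with the wild-type receptor, led by Pdgfra by 1.52 ± 0.33 (adjusted p = 0.00682), Fgfr1 by 1.25 ± 0.20 (adjusted p = 0.00122) and Egfr by 1.13 ± 0.17 (adjusted p = 0.000945). Of 15 JNK and p38 kinase genes, 1 (Mapk9) changed after rosiglitazone with the wild-type receptor, by -0.34 ± 0.10 (adjusted p = 0.0308), and 0 with E157D. In rosiglitazone 5 of the 15 were higher and 0 lower with E157D than with the wild-type receptor, against 19.8% of all features called. They were Mapk12, Mapk8ip1, Map2k3, Mapk11 and Mapk9, and Mapk12 was below detection in wild-type rosiglitazone.

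The listed inhibitors of MAP kinase signalling were also mostly lower where they changed after rosiglitazone. Of 17 tested, 0 rose and 1 fell with E157D, and 1 rose and 6 fell with the wild-type receptor (medians -0.20 and -0.41). All features had 4.1% and 26.7% called. Dusp6, a phosphatase that removes ERK activity, fell with both, by 0.87 ± 0.15 with E157D (adjusted p = 0.00676) and 0.62 ± 0.15 with the wild-type receptor (adjusted p = 0.00946). Errfi1, an inhibitor of EGFR family receptors, fell by 0.89 ± 0.19 with the wild-type receptor (adjusted p = 0.00463). Spred1, Spry3 and Dusp7 also fell, and the 1 that rose, Spry4, was below detection in DMSO. In rosiglitazone 5 of the 17 were higher and 1 was lower with E157D than with the wild-type receptor, against 19.8% of all features called.

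Partners of AP-1 and EGR proteins were called about as often as all features. Of 13 tested, 0 changed with E157D and 3 rose with the wild-type receptor. All features had 4.1% and 26.7% called in either direction, with 12.3% higher for the wild-type receptor. The list medians were 0.02 with E157D and -0.07 with the wild-type receptor, beside -0.01 and -0.03 over all features. The genes that rose were Atf3, a stress-induced partner of JUN proteins, by 0.96 ± 0.24 (adjusted p = 0.0121), Atf4, the factor of amino acid stress, by 0.57 ± 0.13 (adjusted p = 0.00763), and Nfe2l1 by 0.32 ± 0.11 (adjusted p = 0.0469). In rosiglitazone Atf3 was lower with E157D than with the wild-type receptor by a log2 difference of -1.49 ± 0.24 (adjusted p = 0.00122). Atf2 was higher there by 0.41 ± 0.12 (adjusted p = 0.0365), and the other 11 were not called.

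Among 14 tested AP-1 target genes of fibroblasts, 0 rose and 1 fell with E157D, and 0 rose and 3 fell with the wild-type receptor (medians -0.26 and -0.39). Calls over all features were 4.1% and 26.7%. Lox, which crosslinks collagen, fell by 0.60 ± 0.15 with E157D (adjusted p = 0.0445) and by 1.22 ± 0.15 with the wild-type receptor (adjusted p = 0.000171). Timp1, a metalloproteinase inhibitor, fell by 0.66 ± 0.14 with the wild-type receptor (adjusted p = 0.00602), and the third was Fst, below detection in rosiglitazone. In rosiglitazone 3 of the 14 were higher and 0 lower with E157D than with the wild-type receptor, namely Hbegf, Mt2 and Lox. Hbegf, an EGFR ligand, was higher by 1.54 ± 0.19 (adjusted p = 0.000153), with 1 of 3 wild-type arrays detected. Of 12 EGR target genes, 0 changed with E157D, and 2 rose and 2 fell with the wild-type receptor. The angiogenic factor Vegfa rose by 1.10 ± 0.12 (adjusted p = 9.64e-05) and Cebpb, a fat-cell transcription factor, by 0.36 ± 0.10 (adjusted p = 0.0225). Bcl2l11, which promotes cell death, fell by 1.05 ± 0.28 (adjusted p = 0.0156) and the matrix protease Mmp14 by 0.74 ± 0.17 (adjusted p = 0.00707). The response of Vegfa differed between the receptors by -0.85 ± 0.17 (adjusted p = 0.0258). In rosiglitazone 2 of the 12 were higher and 2 lower with E157D than with the wild-type receptor. In DMSO 0 genes of the 7 lists of other early, partner, upstream, feedback and target genes were called between the receptors, against 1.12% of all features.

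**Figure D4:**
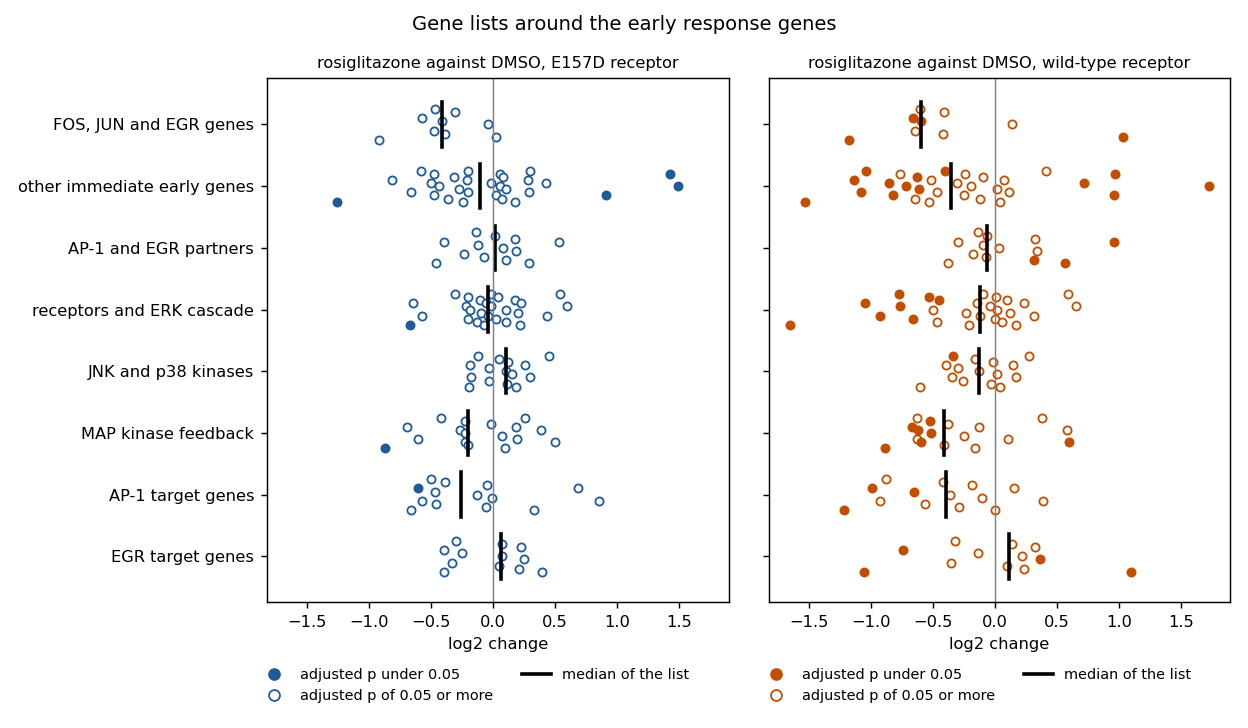
Log2 change with rosiglitazone (x axis) of each tested gene in the FOS, JUN and EGR set and the 7 related lists, with E157D (left) and wild-type receptor (right). Filled points have an adjusted p under 0.05 and black bars are list medians. Called genes are few with E157D, and with the wild-type receptor those of the receptor and ERK list all lie below 0.

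Cell identity markers changed as well. Pdgfra and Pdgfrb, counted above among the growth factor receptors, are also counted among the fibroblast markers. Of 12 fibroblast markers, all detected on some array, 1 fell with E157D and 10 fell with the wild-type receptor after rosiglitazone, with median log2 changes of -0.31 and -0.74. Their summed linear level ranged over 59063 to 70919 with E157D and rosiglitazone, against 83438 to 88587 with E157D and DMSO. Cells with the wild-type receptor had a range of 34456 to 45285 in rosiglitazone, against 70828 to 75958 in DMSO. Of 6 adipocyte markers, Adipoq, Cidec, Plin1 and Fabp4 passed the filter. With E157D 2 of these 4 rose, and with the wild-type receptor all 4 did. Plin1 and Fabp4 were detected only on wild-type rosiglitazone arrays, and Cidec only on rosiglitazone arrays. These genes passed the filter through those arrays, so their calls are not independent of it. The summed level of the 4 was 220 to 271 with E157D and rosiglitazone, against 104 to 106 with E157D and DMSO. It was 1824 to 2430 with the wild-type receptor and rosiglitazone, against 146 to 190 with the wild-type receptor and DMSO. In DMSO none of the 4 was detected with E157D, and only Adipoq with the wild-type receptor. The DMSO sums therefore consist largely of background values and give no measured fold. Lep and Retn were not detected. Between the receptors in DMSO, 1 of 12 fibroblast markers was called, Lum, higher with E157D by 2.29 ± 0.32 (adjusted p = 0.00356). Of the 4 adipocyte markers Adipoq was called, lower and below detection with E157D (adjusted p = 0.000733). In rosiglitazone 7 of the 12 fibroblast markers were higher and 4 of the 4 adipocyte markers lower with E157D. None of the 5 leukocyte markers on the array passed the filter. Of the epithelial or endothelial markers Krt8 and Cdh1 passed, and Epcam, Krt18, Pecam1, Cdh5 and Kdr did not. Of the muscle markers Myog passed, and Myod1, Ckm and Acta1 did not. Krt8, Cdh1 and Myog were called in no comparison. The part of this shift in the changes of the FOS, JUN and EGR genes was not tested.

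The genes whose levels ran most closely with each factor were taken from 9831 named genes by Pearson correlation over the 12 arrays, as a description. For Fosl2 they were Mtap (0.96), Hgf (0.96) and Cpne8 (0.95), and for Fosb Pgpep1 (0.95), Mcfd2 (0.93) and Fxyd1 (0.93). For Junb they were Slc35d2 (0.94), Nat8f4 (0.92) and Saa3 (0.91). For Egr1 they were Sec16b (0.93), Sertad2 (0.93) and Stimate (0.92), for Egr2 Stk40 (0.90), Nt5m (0.89) and Epor (0.88), and for Egr3 R3hcc1 (0.96), Scamp5 (0.94) and Tmem131l (0.94). The closest gene was Dsel (0.90) for Fos, Layn (0.89) for Jun and Cmc2 (0.86) for Jund. No factor had another of the lists among its 3 closest genes.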

How the data were processed

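Total RNA of 12 cultures was labelled with biotin and read on 1-colour Illumina bead arrays, per the labels. The authors deposited each probe's signal intensity with its detection p-value, not normalized, per the file headers. A table of the authors' processed intensity values was an alternative, and how it was made is not stated in these sources. Intensities were put on the log2 scale with neqc (limma 3.58.1, R 4.3.3): normexp background from the deposited detection p-values, an offset of 16 and quantile normalization. Quantile normalization hides a shift of all genes at once. A probe was kept if 3 or more arrays detected it at p under 0.05 (18921 probes), and the brightest stood for its gene. Symbols came from the platform annotation, which gives 34885 probes 1 symbol, 18 several and 10378 none. Of the 13 probes, 10 passed and 9 were tested.

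lmFit and eBayes fitted 4 group means, with 8 residual and 3.9 prior degrees of freedom. P-values were Benjamini-Hochberg adjusted over 13006 features. Errors are standard errors unless marked SD. A bound divides the detected group's mean by the undetected group's mean, each array raised to its lowest detected value. Same-numbered arrays deviated together in the rosiglitazone comparison of wild-type cells (correlations 0.129 to 0.239, all over 0.1), so the number pairs them there. Every other comparison had a pair under 0.1, although 11 of 12 arrays deviated most like a same-numbered array among those of other groups. Of the other lists, called genes were named from the largest change down, at most 6 per list and comparison. The genes and lists were chosen with earlier results of these data known. The fit was tested on simulated arrays.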

Additional observations from a re-analysis of the deposited data

Results flagged for a closer look

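The difference of the rosiglitazone responses between the receptors, E157D minus wild-type, was called for none of the 9 FOS, JUN and EGR genes, with 2 at an unadjusted p under 0.05 in limma. Among the other genes named or listed it was called for 6, each by the test of the difference itself. Klf4 had a difference of 1.53 and Sgk1 of 0.70, both immediate early genes. Vegfa, an EGR target, had -0.85. Of the adipocyte genes, the lipid droplet genes Cidec and Plin1 had -3.11 and -2.94, and the hormone gene Adipoq had -1.94. These 3 values include groups below detection on every array and are fitted values, not measured folds.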

How the results depend on the processing

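No called change turned sign under any alternative. With the wild-type receptor the count of 4 genes called for rosiglitazone ranged from 2 to 4 as single arrays were left out, with 2 called without the first or second rosiglitazone array or the third DMSO array. Without the third rosiglitazone array it stayed 4, with Egr3 called and Egr2 not. It was 2 without the arrays of any one number, a check added after the data were seen. Fosb was not called without background correction (adjusted p = 0.0835), with an offset of 50 (0.0521) or with the authors' values (0.131), and Egr2 was not without the detection filter (0.085). Egr3 was called with an offset of 50 (0.0486) or with probes detected on all 12 arrays (0.0438).

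With E157D the count of 0 became 1, Fosl2, without background correction (adjusted p = 0.0138), with an offset of 50 (0.0302), with the authors' values (0.0268), with probes detected on all arrays (0.0389) and without the third DMSO array (0.021). The range over single arrays was 0 to 1. Between the receptors in rosiglitazone the count of 2 ranged from 1 to 2 over single arrays, and was 1 without the arrays numbered 2 or 3. There Fosl2 was also called under median scaling (0.55, adjusted p = 0.0354), without background correction (0.0303), with an offset of 50 (0.0485) and in a fit of those 6 arrays alone (0.0498). The difference of responses, 0 called, gave 1, Egr2, without background correction (adjusted p = 0.0419), with the authors' values (0.0471) and without the first E157D DMSO array (-1.93, adjusted p = 0.0151), and ranged from 0 to 1.

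The replicate block, which the labels do not describe, gave 6 called genes for the wild-type receptor, 3 for E157D (Fosl2, Fosb and Egr1), 1 between receptors in DMSO (Egr1) and 4 in rosiglitazone (Egr1, Egr2, Egr3 and Fosl2), and changed no call of the difference. For Egr1 the standard error was 0.13 with the block, with adjusted p of 0.00366 for the E157D drug response and, between the receptors, 0.00154 in rosiglitazone and 0.00144 in DMSO. Over all features it moved the count from 533 to 820 with E157D, 146 to 233 in DMSO and 310 to 471 for the difference. Without background correction these were 928 with E157D, 219 in DMSO and 657 for the difference, and with the authors' values 867, 229 and 678. Under median scaling the difference had 194. Median scaling also put 77.9% of calls higher with E157D, against 56.3%, and 55.6% between receptors in DMSO, against 37.7%, and 77.4% in rosiglitazone, against 53.2%. Leaving out single arrays gave 231 to 433 features with E157D, 78 to 122 in DMSO, 1618 to 2278 in rosiglitazone and 184 to 304 for the difference. Fos and Fosb lie at background, and their sizes are not measured well.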

Other observations

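Heat shock genes, listed because handling of cultures can raise them, included 9 tested of 12. With E157D 0 of these were called after rosiglitazone, and with the wild-type receptor 2 rose, Hspd1 by 0.77 ± 0.13 (adjusted p = 0.00151) and Hspe1 by 0.59 ± 0.18 (adjusted p = 0.0293). Both encode the chaperonin of mitochondria. Hspa1a, the inducible cytosolic heat shock gene, did not pass the detection filter. Hspa1b, its near-identical copy, was detected on all arrays and not called, with log2 changes of -0.27 ± 0.23 with E157D (adjusted p = 0.601) and -0.28 ± 0.23 with the wild-type receptor (adjusted p = 0.422). In rosiglitazone Hspd1 was lower with E157D than with the wild-type receptor by a log2 difference of -0.53 ± 0.13 (adjusted p = 0.0155).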
